A study of Schizosaccharomyces pombe with 87 samples.

Results

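The cytosolic ribosomal protein genes of fission yeast, Schizosaccharomyces pombe, are described here from a genome annotation deposited with a chromatin study. They were taken as the genes with a messenger RNA whose name starts with rpl or rps followed directly by a digit. The rule found 131 genes among 5113 mRNA genes, of which 76 carry an rpl name (large subunit) and 55 an rps name (small subunit), and the other 4982 mRNA genes serve as the comparison. The names were checked against the RefSeq products of the same genes. Of the 131 genes, 129 have a product that starts with the words 40S or 60S ribosomal protein, and 0 have a mitochondrial one. The 2 exceptions are rpl701, given as an RNase MRP subunit that resembles ribosomal protein L7, and rpl44, given as a protein with a ribosomal L28e family domain. Outside the rule, cpc2 (the RACK1 protein) and rpp0 (uL10, the base of the ribosomal stalk) have a product that starts in this way, and the products of ubi1, ubi2, ubi3 and ubi5 name a ribosomal protein fused to ubiquitin.

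The series holds 87 ChIP-seq libraries that target H3K9me2 and H3K9me3, the histone methylation marks of heterochromatin, with 48 immunoprecipitated and 39 input libraries from cells grown in YEA medium. The genotypes are swi6-delta, swi6-delta mst2-delta, swi6-delta set1-delta, swi6-delta mst2-delta set1-delta, mst2-delta set1-delta, clr4-delta and WT, in 56 libraries titled ectopic and 31 titled endogenous. Swi6 is an HP1 protein, Clr4 the H3K9 methyltransferase, Mst2 an acetyltransferase and Set1 the H3K4 methyltransferase. The files analysed here are 2 genome annotations and carry no value of any library, so the marks at ribosomal protein genes were not analysed here. All values below are properties of annotated genes, counted over every gene of each group; they have no replicates, and no test was made of any difference.

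Ribosomal proteins bind ribosomal RNA to form the small and the large subunit, and growing yeast cells devote a large part of their transcription to them. Fission yeast keeps many of these genes as paralogues, copies at separate loci that encode near-identical proteins. Their promoters are known to carry the HomolD box, an element that takes the place of a TATA box, and in some genes a HomolE box beside it.

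Most ribosomal protein genes were paralogues. By the number in their names they form 73 families, of which 19 have 1 gene, 51 have 2, 2 have 3 and 1 has 4, so that 112 genes (85.5%) have a copy. The family of 4 by name does not hold by sequence. The protein of rpl8 was 17.6% identical to those of rpl801, rpl802 and rpl803, which encode uL2, a protein near the peptidyl transferase centre, whereas rpl8 encodes eL8. When genes were joined at a protein identity of 60% or more, 20 were single, 51 families had 2 copies and 3 had 3 copies: rpl801 to rpl803, rpl1601 to rpl1603 (uL13) and rps401 to rps403 (eS4). No pair of genes in different families by this measure passed 25.3% identity (rpl29 and rpl3702), and no pair within a family fell below 79.5%, so that the grouping does not hang on the exact limit.

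The copies of the 51 pairs had a median protein identity of 97.2%, with a range of 79.5% to 100%. In 13 pairs the proteins were identical, and in 34 they were at least 95% identical. The least alike were rpl3001 and rpl3002 (eL30) at 79.5%, rps001 and rps002 (uS2) at 79.9%, and rps1201 and rps1202 (eS12) at 81.8%. Identical pairs include rpl1101 and rpl1102 (uL5), rpl1201 and rpl1202 (uL11, at the base of the stalk), and rpl2001 and rpl2002. Coding DNA had diverged further than protein, with a median identity of 87.8% between copies (68.6% to 99.6%), against 52.2% between genes of different families. The pair rpl1201 and rpl1202 stood at the top of that range, at 99.6%. The start regions of copies were less alike. Windows from 250 bases before to 50 after the gene start, which include the first coding bases of most genes, had a median identity of 52.7% between copies, against 52.7% between genes of different families aligned in the same way.

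The copies were spread over the 3 chromosomes. In 35 of the 51 pairs (68.6%) the copies lie on different chromosomes, beside 63.8% of all 8515 pairs that can be drawn among the 131 genes. Chromosomes I and II share 17 pairs, II and III share 10, and I and III share 8, while 11 pairs lie within I, 4 within II and 1 within III. The 1 pair within chromosome III is also the nearest of all, with 63.3 kb between rpl1201 and rpl1202. Among the nearer pairs are also rps2201 and rps2202 (uS8), at 349 kb on chromosome I. The farthest were rps801 and rps802 at 3436 kb on chromosome I, rps1901 and rps1902 at 3289 kb on chromosome II, and rpl301 and rpl302 (uL3, a protein that reaches toward the peptidyl transferase centre) at 3160 kb on chromosome I. Thus no pair stands as a tandem repeat. The genes as a whole followed the other genes in their share of each chromosome, with 44.3% on I, 36.6% on II and 19.1% on III, against 45.7%, 36.4% and 17.8% of the other mRNA genes.

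Ribosomal protein genes had an intron about as often as other genes but seldom more than 1. Of the 131 genes, 68 (51.9%) have an intron, against 48.0% of the other mRNA genes and 51.4% of the 2513 other genes with a coding length in the same range, 78 to 1167 bp. Exactly 1 intron stands in 59 ribosomal protein genes (45.0%), against 21.1% of the others. Only 9 (6.87%) have 2 or more introns, against 26.8% of the others. The most introns are the 3 of rps13 (uS15). The 8 genes with 2 introns are rpl22, rpl3801, rpl3802, rps2501, rps2502, rps27, rps29 and rps3002. Among the 63 genes without an intron are rpl1001, rpl1002, rpl101, rpl1101, rpl1102, rpl1201, rpl13, rpl15, rpl1502 and rpl1701. Small subunit genes had an intron in 31 of 55 cases (56.4%), and large subunit genes in 37 of 76 (48.7%).

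**Figure D1:**
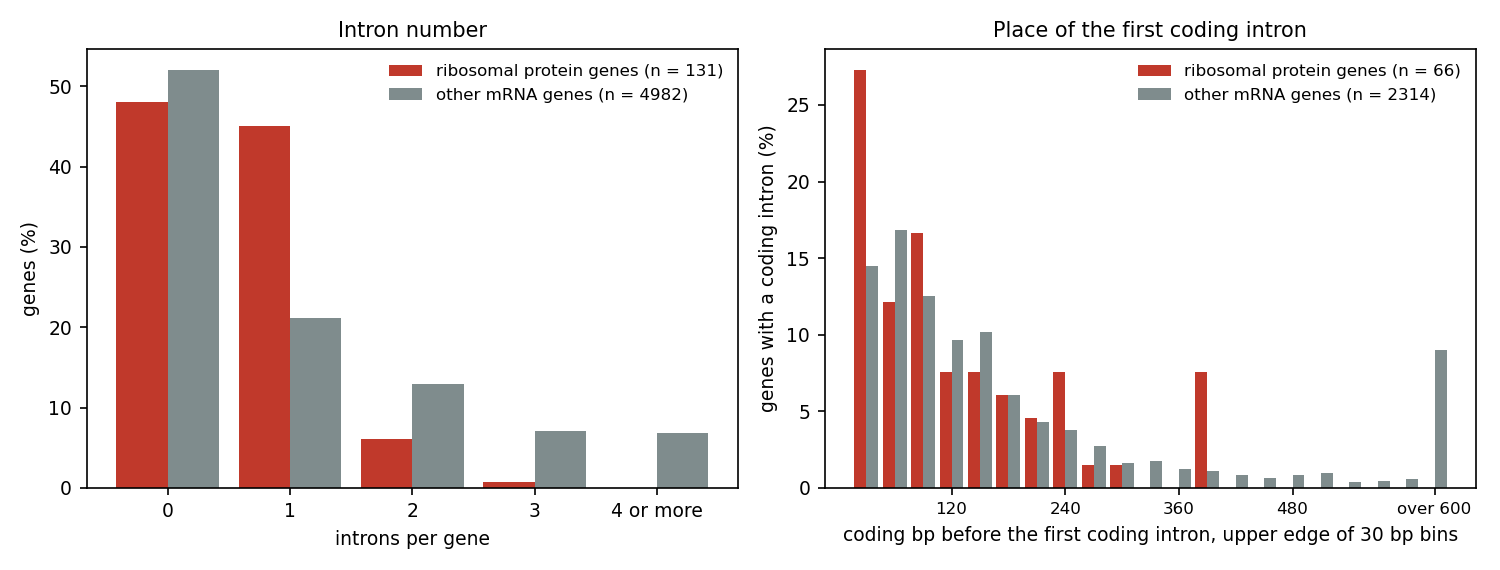
Left, share of genes (%) with 0, 1, 2, 3 or 4 or more introns; right, share of genes with a coding intron (%) against the coding bases before the first one, in bins of 30 bp named by their upper edge, with the last bin open. Red bars are the ribosomal protein genes and grey bars the other mRNA genes. The red bar is the higher one at 1 intron (45.0% against 21.1%) and within the first 30 coding bases (27.3% against 14.5%).

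Of the 78 introns of ribosomal protein genes, 76 lie in the coding sequence. The others are an intron of 147 bp in the 5′ UTR of rps2202 and one of 62 bp in the 3′ UTR of rpl39, a gene for one of the smallest ribosomal proteins. The first coding intron came after a median of 73.5 coding bases in the 66 genes that have one, against 108.5 in 2314 other genes. This order turns round when the place is taken relative to the coding length, which is shorter in ribosomal protein genes: the medians are then 18.5% of the coding sequence in ribosomal protein genes and 10.9% in the others. The places were spread out. The intron lay within the first 30 coding bases in 27.3% of these genes, against 14.5% of other genes with a coding intron, and within the first 100 in 59.1%, against 47.4%. The latest by coding bases are those of rps1202 after 390 bases, rpl102 (uL1) after 388 and rps1201 after 381.

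A group of 9 genes has its first intron directly after the start codon, after 3 coding bases. They make up 13.6% of the ribosomal protein genes with a coding intron, whereas 33 of 2314 other genes (1.43%) have an intron there. The 9 are both copies of 4 pairs, rpl1801 and rpl1802, rpl3801 and rpl3802, rps1701 and rps1702, and rps2501 and rps2502, together with rpl8. In rpl22 and rps27 the intron follows after 6 coding bases. The first exons and intron starts of the 9 genes are printed because they make the start codon and the splice site visible as neighbours. They are given 5′ to 3′ on the coding strand, from RefSeq's ASM294v3 genome and in its coordinates, with the first 6 intron bases in capitals. The 3 letters before the capitals are the start codon.
rpl1801, chrII:3361817-3361834, plus strand: atgGTATGTataatatga
rpl1802, chrI:1285627-1285644, plus strand: atgGTAAGTaaatgtcgt
rpl3801, chrII:754652-754669, plus strand: atgGTAAGTgagataagt
rpl3802, chrI:1097233-1097250, minus strand: atgGTATGTgcatgcttt
rpl8, chrII:2045495-2045512, plus strand: atgGTAAGTgacaatcga
rps1701, chrII:604360-604377, minus strand: atgGTAAGTagttataaa
rps1702, chrIII:917864-917881, plus strand: atgGTAAGGctttcaata
rps2501, chrII:1274250-1274267, plus strand: atgGTAAGTgtggattat
rps2502, chrI:4208830-4208847, minus strand: atgGTAAGAattttaaaa
The intron starts GTAAGT and GTATGT make up 7 of these 9. Over all 78 introns of ribosomal protein genes, 39 (50%) start with GTAAGT and 23 (29.5%) with GTATGT, against 27.3% and 19.6% of 5130 introns of other genes.

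Intron ends were also more uniform. They read TAG in 69 of the 78 introns (88.5%) of ribosomal protein genes, against 68.1% of the others. A branch point word, CTAAC or CTAAT, stood within the last 60 bases of the intron in 65 (83.3%), against 68.1% of other introns. Its median distance to the intron end was 11 bases in both groups. The ends of the start-codon introns of 4 genes are printed to show the final AG and, where present, the branch word, both in capitals, with the first 3 exon bases after them.
rpl1801, chrII:3361848-3361874, plus strand: ctattaagCTAATgagtgatttAGgga
rpl1802, chrI:1285677-1285703, plus strand: attttaaaCTAATaaatttattAGggt
rps1701, chrII:604094-604120, minus strand: tgtgcataaCTAACattcctctAGggt
rps1702, chrIII:917907-917933, plus strand: atagaaattactgacaaaacatAGggt
The intron of rps1702 holds neither branch word near its end, and of the 9 start-codon introns those of rpl3802 and rps2502 lack it as well. These words were matched letter by letter, and a missing match says only that these letters are not there.

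Introns of ribosomal protein genes were longer than those of other genes. The median over all introns was 78 bp, against 56 bp, and the first coding intron exceeded 200 bp in 14 of 66 genes (21.2%), against 7.95% of other genes. Among the longest first coding introns are those of rpl701 (441 bp), rpl702 (291 bp), rpl35 (284 bp) and rps1701 (278 bp). The shortest are those of rps27 (38 bp), rpl2701 (44 bp), rps901 (45 bp), and rpl1601 and rpl22 (46 bp each). The intron of rpl701 holds the small nucleolar RNA gene snoR39b on the same strand. It is the only 1 of the 131 genes with such a gene in an intron, beside 11 other mRNA genes, which include rlp7, a relative of rpl7 in ribosome biogenesis that holds snoR39a, and cpc2, which holds snoU24b.

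Copies of a pair mostly shared the presence and place of their introns and not their length. Both copies have an intron in 23 of the 51 pairs, neither in 22, and 1 copy only in 6. The 6 are rpl101 and rpl102, rpl1201 and rpl1202, rps001 and rps002, rps2201 and rps2202, rps2601 and rps2602 (eS26), and rps901 and rps902 (uS4). The intron is in rpl102, rpl1202, rps001, rps2202, rps2602 and rps901. A further pair differs in number, with 1 intron in rps3001 and 2 in rps3002. In rpl1202 the intron follows after 12 coding bases, although the coding sequences of its pair are 99.6% identical. Where both copies have a coding intron, the first one follows the same number of coding bases in 20 of 23 pairs. The other 3 pairs are rpl3001 and rpl3002 (239 and 263 bases), rpl701 and rpl702 (129 and 126), and rps1201 and rps1202 (381 and 390). In these 3 the intron stands at an equal distance from the stop codon in both copies, at 91, 627 and 57 coding bases. Hence all 23 pairs have the intron at the same distance from 1 end of the coding sequence.

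**Figure D2:**
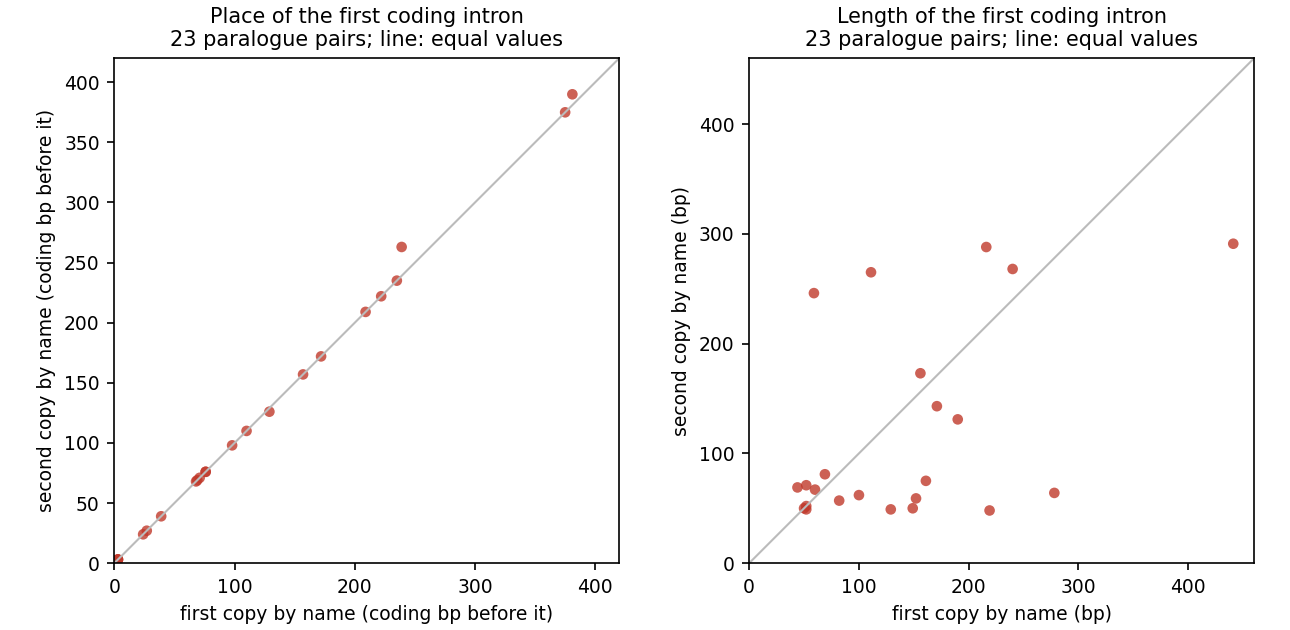
The 23 paralogue pairs in which both copies have a coding intron, 1 point per pair, with the first copy by name on the x axis and the second on the y axis. On the left is the number of coding bases before the first coding intron, on the right the length of that intron in bp, and the grey line marks equal values. Places lie on or near the line, whereas lengths leave it by up to 4.56 times.

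The longer of both first coding introns was a median of 1.45 times the length of the shorter, and at least 2 times in 8 of the 23 pairs. The largest ratio is that of rps1001 and rps1002 (eS10), with 219 bp in rps1001 and 48 bp in rps1002, 4.56 times. In rps1701 and rps1702 the lengths are 278 and 64 bp, and in rpl3001 and rpl3002 they are 59 and 246 bp. The introns of rpl4101 and rpl4102, genes for a peptide of 25 residues, have 52 bp each. The first introns of rps2501 and rps2502 have 50 bp each, while their second introns have 104 bp in rps2501 and 53 bp in rps2502. Aligned intron sequences were 50% identical in the median between copies, against 33.6% between first introns of different families. Lengths bear on such identities and were not matched. Ratios of intron length were not computed between genes of different families.

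The starts of ribosomal protein genes carried a short 5′ UTR behind a shared promoter word. The annotated 5′ UTR had a median of 19 bp (4 to 239 bp) in the 127 genes with a record, against 102 bp in 4387 other genes and 86 bp in the other genes of the same coding length range. It was 50 bp or less in 120 of the 131 genes (91.6%), against 25.03% of all 4982 other genes. These totals include the genes without a record. The shortest belong to rpl702 (4 bp), rpl39 and rps1002 (5 bp each), and rpl501 and rps2802 (6 bp each). The longest are those of rpl3402 (239 bp), rpl701 (80 bp), rpl3002 (69 bp), and rps1202 and rps2202 (54 bp each). Of all 131, only rpl3402 passes 100 bp, a length that 44.4% of all 4982 other genes exceed, again with genes without a record in the total. The genes rpl2802, rpl902, rps21 and rps2501 have no 5′ UTR record.

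This length depends on the annotation. In the second deposited annotation, named tetarr6, the 5′ UTR was longer in 116 of the 123 ribosomal protein genes with a record in both, and its median there was 70 bp instead of 19 bp. The same held for 81.6% of the other genes, whose median was 178 bp over the genes with a record in both. The gene rps101 (eS1) differs most, with 13 bp in the all-chromosomes annotation and 884 bp in the other. In both annotations the ribosomal protein genes had the shorter median. The 3′ UTRs, in contrast, were equal in 130 of 131 ribosomal protein genes and in 99.7% of the other genes.

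**Figure D3:**
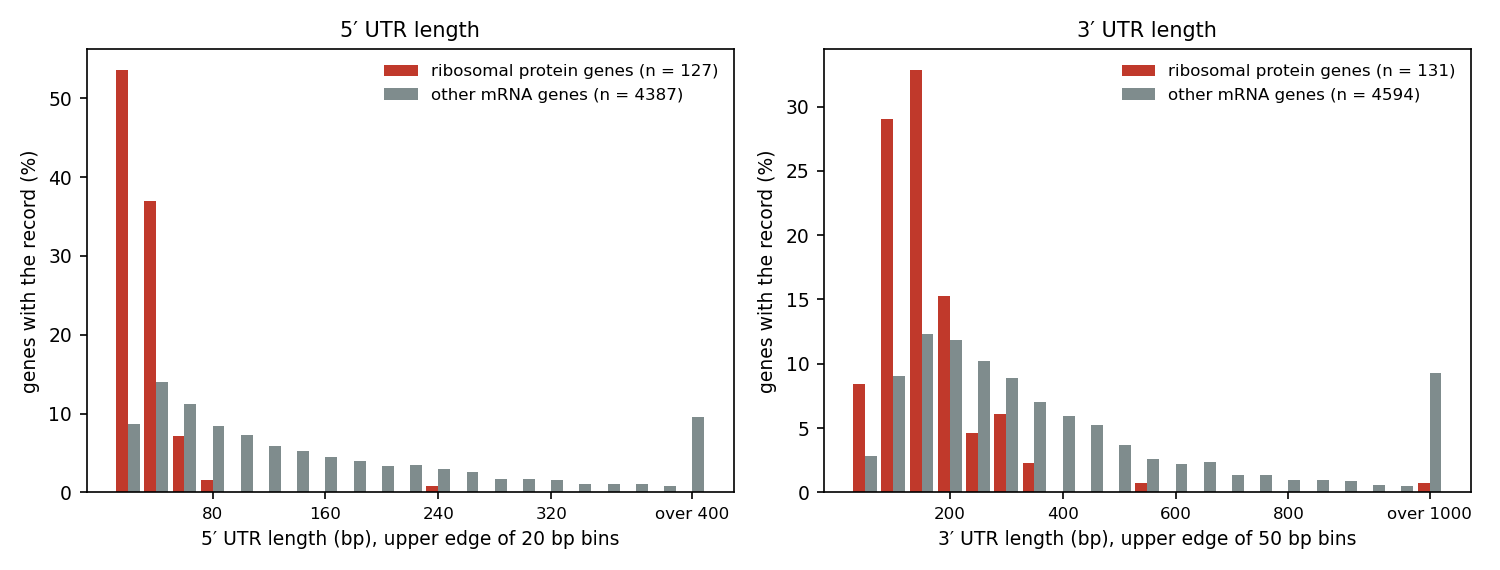
Share of genes with a record (%) against the annotated length of the 5′ UTR (left, bins of 20 bp) and of the 3′ UTR (right, bins of 50 bp), each bin named by its upper edge and the last bin open. Red bars are the ribosomal protein genes (127 and 131 with a record) and grey bars the other mRNA genes (4387 and 4594). Red bars crowd at the short end, with medians of 19 bp and 122 bp against 102 bp and 269 bp.

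To see what the promoters share, all words of 8 letters were counted on both strands in the windows from 250 bases before to 50 after the RefSeq gene start. The word with the widest gap in share between ribosomal protein genes and other genes was CAGTCACA, or TGTGACTG on the other strand, which are the letters known as the HomolD box. It was found in 84 of 131 windows (64.1%), against 53 of 4979 windows of other genes (1.06%). The search chose the word for this gap, so that its share is a description. Its first 7 letters, CAGTCAC or GTGACTG, stood in 121 windows (92.4%), against 2.41% of the others. They were taken as the word of 7 letters with the widest such gap, so that this share too is a description. With 1 mismatch allowed in the 8 letters, 128 windows (97.7%) hold the word, against 14.1%. The first word of that ranking that does not overlap CAGTCACA was AGGGTAGG, or CCTACCCT on the other strand, which corresponds to part of the known HomolE box. It stood in 50 windows (38.2%), against 0.844% of other windows.

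The place of the words was not used in the search. Distances run to the RefSeq gene start and depend on it. In tetarr6 the 5′ UTRs of 123 ribosomal protein genes were longer by a median of 44 bp. Distances to the gene starts of tetarr6 were not computed. The word of 7 letters ended a median of 45 bases before the gene start, and 118 of the 121 genes have it between 25 and 75 bases, against 51.7% of the other genes with the word. The second word had a median of 62 bases. In all 28 genes that hold both words of 8 letters, the second lies farther from the gene start. The word of 7 letters read in the direction of the gene in 77 genes and in the opposite direction in 44, whereas the other genes were split 61 to 59. Windows of divergent neighbours can share a word. The same letters count for both rps1602 and rpl13, and for both rpl701 and rps1402, in opposite directions. The windows of rpl35 and rpl902 likewise share a word of 8 letters. The second word was split 26 to 24.

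**Figure D4:**
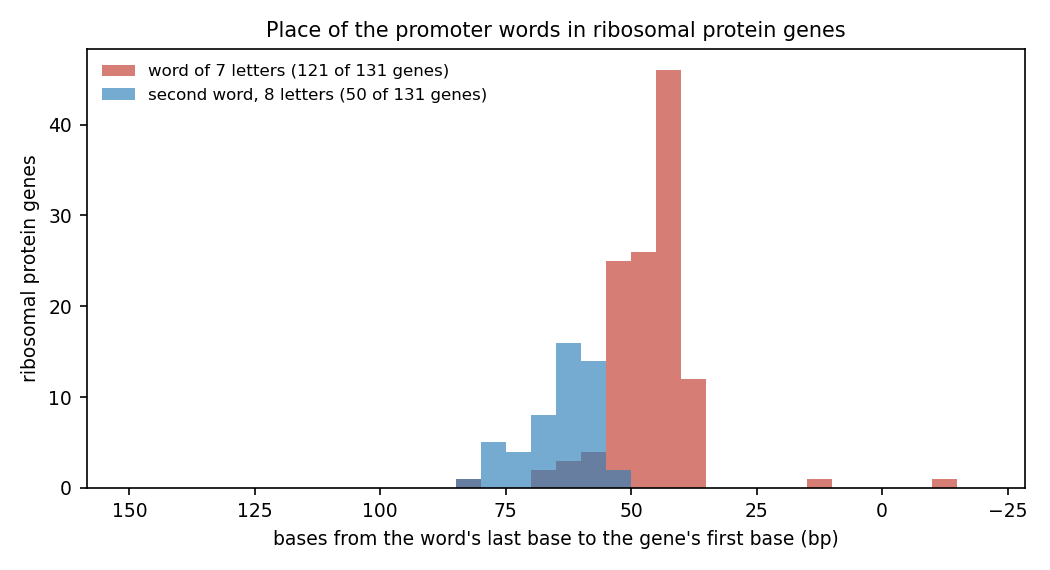
Number of ribosomal protein genes (y axis) against the bases between the end of a promoter word and the first base of the gene (x axis, in bp, with the gene to the right and negative values inside it), in bins of 5 bp. Red bars are the word of 7 letters (121 of 131 genes) and blue bars the second word (50 of 131 genes). Red bars gather around 45 bases and blue bars around 62.

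The 3 families with 3 copies show the words in their sequence, with the word in capitals and the flanks in lower case, 5′ to 3′ on the coding strand of the gene and in ASM294v3 coordinates. They are shown so that the word can be seen against the flanks of copies of 1 gene.
rpl1602, chrI:4097266-4097294, plus strand: ttcaaaaaaagCAGTCACatctttaacaa
rpl1603, chrII:3443187-3443215, plus strand: cgtcagaaaaaCAGTCACgtttgataaac
rpl801, chrI:4251478-4251506, minus strand: atgaccgaaaaCAGTCACattttacaaca
rpl802, chrII:1726588-1726616, plus strand: ttacacaaaagCAGTCACgagtacttttc
rpl803, chrII:601191-601219, plus strand: ggtcgttaaagCAGTCACatgtacactgt
rps401, chrII:3245072-3245100, plus strand: tctatacaaagCAGTCACatcttttgaca
rps402, chrII:1651865-1651893, minus strand: gtgctaaagagCAGTCACtgtatatcgaa
rps403, chrI:3399183-3399211, plus strand: gacgaaaaaggCAGTCACaattatttgct
The second word stood in rpl803 and rps402 alone among these 9 genes.
rpl803, chrII:601172-601201, plus strand: gtttcagtaacCCTACCCTggtcgttaaag
rps402, chrII:1651906-1651935, minus strand: tttaaatgggtAGGGTAGGgttggtacttg
The words of 7 letters ended 43, 50, 52, 60, 44, 41, 43 and 41 bases before the gene start in the order of the first 8 lines. The window of rpl1601, the remaining copy, holds neither word.

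The word of 7 letters was missing in 10 genes, among them rpl1601, rpl2402, rpl2501, rpl31, rpl3601, rps1202, rps1401, rps2302 and rps902. Of the 10, 6 hold the second word, among them rpl2501, rpl31, rps1202, rps1401 and rps2302, and 4 hold neither, namely rpl1601, rpl2402, rpl3601 and rps902. Between copies, the word of 7 letters, which 92.4% of these genes hold, stood in both windows of 43 pairs, in 1 of 8 pairs and in neither of 0 pairs. The second word, which 38.2% of these genes hold, stood in both windows of 6 pairs, in 1 of 27 and in neither of 18. In rpl2501, for instance, the second word ends 60 bases before the gene, and its copy rpl2502 holds the second word at 69 and the word of 7 letters at 58 bases.

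Ribosomal protein genes also had short 3′ UTRs. Their median was 122 bp (29 to 2033 bp) over all 131 genes, against 269 bp in 4594 other genes and 303 bp in the other genes of the same coding length range. The shortest are those of rps1602 (29 bp), rps23 (32 bp), rpl502 (36 bp), rps2201 (41 bp) and rps1002 (45 bp). The longest are those of rpl1603 (2033 bp), rps601 (530 bp), rpl1702 (342 bp), rps1001 (326 bp) and rpl702 (302 bp). The gene rps601 encodes eS6, the small subunit protein known for its phosphorylation in response to nutrients, and the 3′ UTR of its copy rps602 has 81 bp. Between copies, the longer 3′ UTR was a median of 2.04 times the shorter, and at least 2 times in 27 of 51 pairs. Among these 51 pairs the widest gap is that of rps1601 (215 bp) and rps1602 (29 bp), at 7.41 times, although their proteins are identical. The 5′ UTRs of copies differed by a median of 13 bp. Neither UTR was compared in this way between genes of different families.

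The 3′ UTR overlapped another mRNA gene in 29 of the 131 ribosomal protein genes (22.1%), against 42.3% of the other genes with a 3′ UTR. The overlapped gene lies on the opposite strand in all 29. The 2033 bp of rpl1603 overlap apl1, a gene for a subunit of the AP-2 adaptor complex. The gene rpl1603 stands apart in further ways. Its protein is 84.8% and 86.3% identical to those of rpl1601 and rpl1602, which are 96.4% identical to each other. Its effective number of codons, a measure that is low where a gene uses few of the synonymous codons, is 54.5, against 40.7 in rpl1601 and 38.3 in rpl1602. This is the highest value among the 129 ribosomal protein genes in which it could be computed, before rps27 at 48.1 and rpl35A02 at 46.6. The median was 36.8 in ribosomal protein genes (27.2 to 54.5), against 49.9 in the other genes. Lysine and arginine, the basic residues that meet ribosomal RNA, made up a median of 19.6% of the residues of ribosomal proteins, against 11.3% of other proteins. The extremes were rpl4101 and rpl4102 at 68.0% and rps1202 at 9.46%.

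Antisense lncRNA genes, long non-coding RNA genes on the opposite strand that overlap the gene by 1 bp or more, were annotated at 73 of the 131 ribosomal protein genes (55.7%), against 76.0% of the other mRNA genes. Gene length moved with this share. Ribosomal protein genes have a median length of 686 bp, against 1805 bp in the other genes. Within classes of gene length below 1200 bp the gap was smaller than over all genes. Under 500 bp the shares were 42.9% of ribosomal protein genes and 49.4% of the others. Between 500 and 700 bp they were 58.0% of ribosomal protein genes and 56.4% of the others. Between 700 and 900 bp they were 58.1% of ribosomal protein genes and 63.0% of the others. Between 900 and 1200 bp they were 68.2% of ribosomal protein genes and 68.3% of the others. From 1200 bp on, 2 of 7 ribosomal protein genes have one, against 80.0% of the others. The 2 are rpl301 and rps601, and the 5 without are rpl1603, rpl302, rpl401, rpl701 and rpl702.

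**Figure D5:**
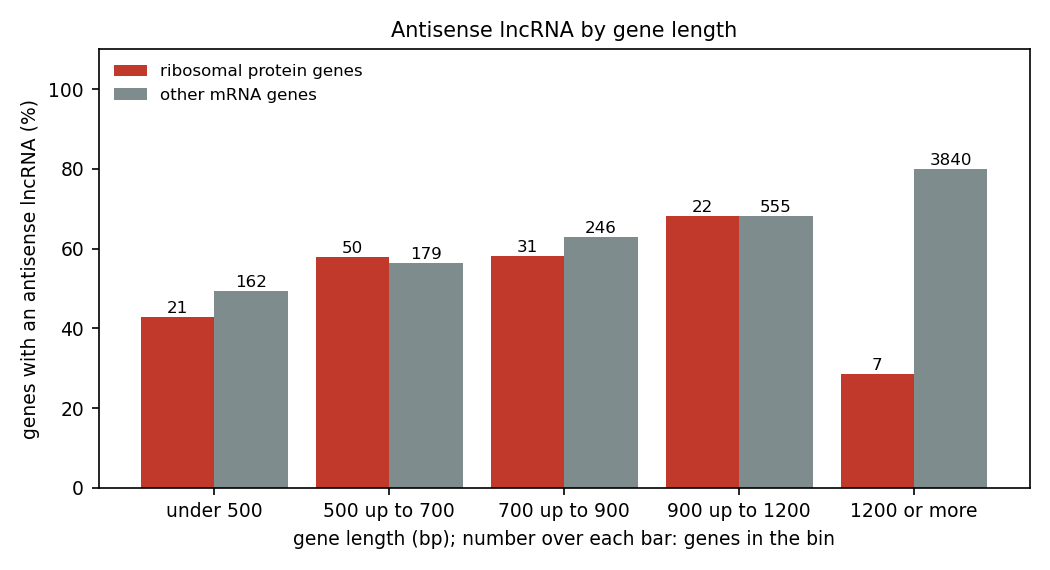
Share of genes (%) with an antisense lncRNA in 5 classes of gene length in bp. Red bars are the ribosomal protein genes, grey bars the other mRNA genes, and the number over each bar counts its genes. Below 1200 bp the widest gap is that of the shortest genes (42.9% against 49.4%), and the class of 1200 bp or more holds 7 ribosomal protein genes.

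The antisense genes covered 50% or more of the gene in 41 ribosomal protein genes (31.3%), against 44.4% of the others. They covered the whole gene in 16 (12.2%), against 6.95% of the others and 9.07% of the others of the same coding length range. The 16 are rpl1002, rpl1502, rpl1801, rpl26, rpl2702, rpl3703, rpl39, rpl801, rpl803, rpl902, rps1101, rps1102, rps1601, rps1902, rps21 and rps2601. Only rpl801 and rpl803 on the one hand and rps1101 and rps1102 (uS17) on the other are copies of each other. The gene start was covered in 50 genes (38.2%), against 43.3% of the others, and the gene end in 33 (25.2%), against 24.0%. Each of the 85 antisense genes overlaps 1 ribosomal protein gene only. Of these 85, 13 also stand in the tetarr6 annotation, which holds 1382 of the 7157 lncRNA genes.

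Copies of a pair were also compared in antisense annotation. An antisense lncRNA, which 55.7% of these genes have, stood at 1 copy only in 31 of the 51 pairs. It stood at both copies in 12 and at neither in 8. Among the first by name, rpl1502 is covered whole and rpl15 (eL15) has none, rpl1801 is covered whole and rpl1802 has none, and 49.3% of rpl2001 is covered while rpl2002 has none. Likewise 72.0% of rpl2302 (uL14) is covered and rpl2301 has none, and 50.6% of rpl2402 is covered while rpl2401 has none.

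The places of the genes were set against centromeres and chromosome ends, regions that heterochromatin is known to occupy. Distances to the mating-type region, which had also been planned, are not given. Distances run to the centromere records and to base 1 and the last annotated base of each chromosome. The nearest to a centromere are rps402, 6.08 kb from that of chromosome II with 3 mRNA genes between, and rpl1002 (uL16), 8.78 kb from that of chromosome I with 1 gene between. Next come rpl42 (eL42) at 30.6 kb, rps1802 (uS13) at 37.4 kb and rpl26 (uL24) at 43.8 kb. In all, 10 ribosomal protein genes (7.63%) lie within 100 kb of a centromere, against 5.06% of the others. Chromosome ends hold few. The nearest are rpl35 at 88.8 kb and rpl902 at 89.8 kb, both on chromosome III, and only these 2 (1.53%) lie within 100 kb, against 187 of the other genes (3.75%). Next are rpl2402 at 136 kb on chromosome III, and rps101 at 175 kb and rpl4101 at 177 kb on chromosome I.

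The positions in the all-chromosomes annotation run out of step with those of RefSeq at 1 place each on chromosomes II and III. Downstream of these places, 47 ribosomal protein genes (35.9%) have shifted positions, against 37.0% of the others. The nearest gene to the place on chromosome II is rpl401 (uL4, which lines the exit tunnel), 5.59 kb away with 3 mRNA genes between. On chromosome III the nearest are rpl2402 at 20.4 kb, rpl902 at 24.6 kb and rpl35 at 25.7 kb. All 131 genes have the exon structure that RefSeq gives.

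Some ribosomal protein genes are neighbours of each other. In 8 cases 2 of them follow one another with no mRNA gene between, which involves 15 genes (11.5%). Ribosomal protein genes make up 2.56% of all mRNA genes. That is a share for a single neighbour, whereas the 11.5% counts a neighbour on either of 2 sides, so that the 2 shares are not on the same scale. Of the 8, 4 are divergent and so have their starts side by side: rpl701 and rps1402 with 67 bp between them, rps1602 and rpl13 with 102 bp, rpl35 and rpl902 with 203 bp, and rps2 and rps20 with 490 bp. The tandem neighbours are rps403 and rpl2102, rps29 and rps27, and rps1402 and rps1601. The convergent pair is rps001 and rpl2701, with 110 bp between the gene ends. None of the 8 joins copies of 1 family.

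Genes of related roles outside the name rule were set beside them. All 7 genes of the ribosomal stalk, rpp0, rpp101 to rpp103 and rpp201 to rpp203, have an intron. Their median 5′ UTR was 28 bp, and 5 of the 7 hold the word of 7 letters. The 4 genes ubi1, ubi2, ubi3 and ubi5, which encode ribosomal proteins fused to ubiquitin, have no intron, a median 5′ UTR of 22.5 bp, and the word in 4 of 4 windows. The polyubiquitin gene ubi4 lacks the word. Genes with the name and product of a mitochondrial ribosomal protein differed. The word was found in 0 of 56 windows, their median 5′ UTR was 101.5 bp, and their median effective number of codons was 50.6, against 36.8 in the cytosolic genes. Of 10 names listed for translation elongation factor genes, 7 were found as gene names. The other names, ef1a-a, ef1a-b and ef1a-c, stand in the products of tef101, tef102 and tef103, which are among the 7. The median 5′ UTR of these 7 genes was 34 bp, their median effective number of codons was 32.0, and 57.1% hold the word. Of 14 genes for ribosome biogenesis and its regulators, 1 holds it.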

How the data were processed

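The series measured H3K9me2 and H3K9me3 by ChIP-seq in 87 libraries, whose groups and replicate numbers were read from the titles. Per the submitters' processing notes, reads went through Trimmomatic and BWA, with no version given. The values used are start and end positions in bp of the 2 annotations that the authors deposited. The source field of the all-chromosomes one names PomBase, and the tetarr6 one is a Geneious export, per the file headers. The score fields of both are empty (0 of 58359 and 0 of 40352 records). There are thus no read counts, the depth is unknown here, and columns of values per library numbered 0.

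Introns, UTR lengths and antisense overlap were computed from the first transcript of each gene in the all-chromosomes annotation, with Python 3.11.15. Gaps between exons of a transcript count as introns, and no filter on genes was applied. The procedure was tested on simulated data and returned the drawn values in 2000 of 2000 gene models. Families were counted both by the number in a gene's name and by a protein identity of 60% or more. The pairs and the families of 3 copies follow the protein identity. Sequences were read from RefSeq's ASM294v3 genome in RefSeq's own coordinates, since all 131 genes have the same exon structure in both, and no position was converted. Identities are from global alignments with Biopython 1.88. The promoter table planned for the HomolD search was not used here, and windows of 250 bases before to 50 after each gene start were read instead. The promoter word was found by counting all words, not by searching letters set beforehand. Genes are named by a rule on extremes (3 to 5 at each end of a measure, families of 3 or more copies, and pairs that differ in introns or antisense), and genes in other counts were named after their values were seen. The ribosomal protein genes, the lists and the measures were chosen with earlier results of these data known. Alternatives covered the comparison group, the annotation, the overlap and the word. No test was made, and no comparison of libraries was possible. Values of 1 pair of copies are not reported here, and its genes are included only in the counts. The list of mitochondrial names held 57 genes, of which rsm1 was left out because its product is an RNA export factor.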

Additional observations from a re-analysis of the deposited data

How the results depend on the processing

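Of 84 alternative values, 61 stayed close to their main value, 21 moved further and 2 turned the order of the groups round. Close meant within the 95% interval of a share or within a factor of 1.5 of a median. Reversed were the medians of the place of the first coding intron. They were 18.5% of the coding sequence in ribosomal protein genes and 10.9% in other mRNA genes. In the other genes of the same coding length range the median was 0.157 of the coding sequence. The cause of the reversal was not tested. Among the other mRNA genes, the share with an intron was 50.7% in those with a name, 51.4% in those of the same coding length range and 46.4% for coding introns alone, and the median intron number was 1 in the first 2 of these. In the tetarr6 annotation the median 5′ UTR was 69 bp in ribosomal protein genes and 178 bp in others; the cause was not tested. The share with an antisense lncRNA was 31.3% in ribosomal protein genes and 44.4% in others where 50% of the gene had to be covered, and 9.92% and 19.0% for lncRNA genes of both annotations. In the others alone it was 77.6% with both UTRs annotated, 67.8% in the same coding length range, 71.8% over the coding sequence and 62.6% under 1200 bp. The word of 8 letters was in 72.6% of ribosomal protein genes with 1 gene per family. With 1 mismatch it was in 97.7% and 14.1%, and cut to 7 letters in 92.4% and 2.41%. Upstream of the start codon it was in 0.723% of the others. The alternatives for length, tetarr6 UTRs, 7 letters, start codon, short gaps and other transcripts were chosen after seeing the data. Settings for H3K9me2 and H3K9me3 signal were not run. No paired analysis was possible because the annotations hold no value of any library.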
